A study of Mus musculus with 6 samples.

Results

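The 28 genes described here act in cholesterol synthesis and in its control. They were listed by name, and for each gene the probe set was taken whose only symbol in the array annotation is that gene, with the highest mean over the 6 arrays where there were several. This gave 25 members out of 22180 genes with a probe set of their own. Of the other 3, Idi1 shares its probe set with a further gene, and Acat2 and Soat1 could not be matched to a probe set, so these 3 have no value below. No member is a lipoprotein receptor, and the list therefore covers synthesis, sterol sensing, transport and storage rather than uptake. RNA of whole testes from C57BL/6J mice, 10 weeks old, was hybridised to Affymetrix mouse gene arrays, 3 for the ATZ group and 3 for the control group. The ATZ mice had drunk water with atrazine (ATZ), a triazine herbicide, at 100 mg/l for 3 weeks, which comes to about 25 mg/kg per day, and had then been left without it for 2 weeks. Control mice are labelled only as such, and no genetic change is given for either group. The labels do not say whether an array holds 1 animal or a pool, and the p-values therefore rest on the scatter of 3 samples per group, which may be technical.

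Cholesterol is built from acetyl-CoA in a long chain of reactions. Mevalonate is made first and turned into isoprenoid units, these are joined to squalene, squalene is closed to lanosterol, and lanosterol is trimmed to cholesterol. The transcription factors SREBP-1 and SREBP-2 switch on most of these enzymes when membrane sterol is low, after the escort protein SCAP has carried them out of the endoplasmic reticulum. INSIG proteins hold SCAP back when sterol is plentiful. In the testis, Leydig cells use cholesterol as the raw material of testosterone, Sertoli cells and germ cells need it for their membranes, and late sterol intermediates of the pathway are known in gonads as meiosis-activating sterols. A whole testis mixes all of these cells, and on such arrays fewer cells of a type and less RNA per cell cannot be told apart.

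The values are log2 values that the authors made by robust multi-array average (RMA), so a difference of 1 is a doubling. Over all probe sets the median was between 6.60 and 6.69 on every array, and arrays correlated at 0.986 to 0.992. The upper quartile was lowest on ATZ replicate 3 (8.53) and control replicate 3 (8.56) and highest on control replicate 2 (8.69). On the first principal component of the brighter part of the probe sets, those whose mean exceeded the median one, which held 43.6% of the variance, the arrays did not separate by group. ATZ replicate 3 stood at 24.3 and control replicate 3 at 11.1, ATZ replicates 1 and 2 and control replicate 1 lay between -6.91 and -1.81, and control replicate 2 stood at -22.8. All 14 measured germ cell markers of 16 listed and all 13 measured Sertoli cell markers of 14 listed were brighter than the median probe set. So were 8 of 9 measured Leydig cell markers, of 14 listed. With 6 arrays, the precision of each value below is limited by their number.

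Stretches of promoter show which letters the members share. RefSeq windows of GRCm38.p6, from 250 bases before to 50 after a transcript's start, were used for 24 of the 28 genes. Fdps, Fdft1, Sqle and Stard4 had no window in the search and are missing from all motif shares. Any member window on a single chromosome was left out by a filter that was not applied to the windows of other genes. They were searched on both strands for TCACNCCAC, a sterol regulatory element that SREBP binds, for CCAAT, the box of NF-Y, for GGGCGG, the box of Sp1, for the E-box CACGTG, and for the cAMP response element, whole as TGACGTCA and as its core TGACG, which lies within the whole. NF-Y and Sp1 are known partners of SREBP at promoters of this pathway. A match is a run of letters and does not show binding. Printed here are 110 bases each of Lss, Msmo1, Hsd17b7 and Insig1, which had 4 of the 5 largest differences between the groups, of Hmgcs1, where the sterol regulatory element was found, and of Cyp51, whose difference was small. Each runs 5′ to 3′ along the gene, with motifs of either orientation in capitals.
Hmgcs1, chr13:119690155-119690264, plus strand: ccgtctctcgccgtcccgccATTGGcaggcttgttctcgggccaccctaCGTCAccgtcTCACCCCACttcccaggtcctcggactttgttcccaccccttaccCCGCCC
Lss, chr10:76531438-76531547, plus strand: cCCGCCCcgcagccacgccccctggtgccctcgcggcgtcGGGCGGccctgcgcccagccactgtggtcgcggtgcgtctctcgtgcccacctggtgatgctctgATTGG
Msmo1, chr8:64733629-64733738, minus strand: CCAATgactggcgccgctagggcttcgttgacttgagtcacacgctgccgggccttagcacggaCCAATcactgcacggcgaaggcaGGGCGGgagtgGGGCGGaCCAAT
Hsd17b7, chr1:169969334-169969443, minus strand: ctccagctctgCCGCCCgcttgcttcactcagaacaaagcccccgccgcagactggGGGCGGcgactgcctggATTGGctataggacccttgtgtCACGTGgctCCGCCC
Insig1, chr5:28071182-28071291, plus strand: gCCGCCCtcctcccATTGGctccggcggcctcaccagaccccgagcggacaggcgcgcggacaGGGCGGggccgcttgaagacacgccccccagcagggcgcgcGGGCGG
Cyp51, chr5:4104723-4104832, minus strand: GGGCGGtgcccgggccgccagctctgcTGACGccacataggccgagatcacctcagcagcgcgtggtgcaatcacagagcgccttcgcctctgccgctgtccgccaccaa

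CCAAT was found in 21 of 24 genes (87.5%), against 41.6% of the 16990 genes of the array annotation that have a window. A gene counted if any of its windows held the motif, with 33 windows for the 24 genes and 20611 for the array genes. Counted by window, CCAAT was in 66.7% of the members' windows against 37.4% of all windows, and GGGCGG in 78.8% against 35.7%. All windows here are 32851 and include genes not on the array, a wider background than that of the other shares. By gene, GGGCGG was in 38.2% of that wider background. Counted from the transcript's start, Msmo1 has CCAAT at -160, -96 and -55, all in its printed stretch. GGGCGG was in 22 of 24 genes (91.7%) against 49.5%, with a median GC content of 61.3% in the members' windows and 56.7% in those of genes on the array. The sterol regulatory element was in 1 of 24 genes (4.17%) against 1.43%. That gene was Hmgcs1, where it begins at -137, with CCAAT at -176 of the same stretch. CACGTG was in 6 of 24 genes (25.0%) against 9.19%. The core TGACG was in 11 of 24 (45.8%) against 26.8%, Cyp51 among them, and the whole TGACGTCA in 0 of 24 against 2.65%. These shares are descriptions and were not tested.

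Most members had lower mean values in ATZ-treated than in control testes, but no member differed beyond the spread between replicates. The log2 change, ATZ minus control, was below 0 for 21 of 25 members and above 0 for 4, with a median of -0.17. Over all genes it was below 0 for 50.8%, with a median of -0.003, and among the 13565 genes whose mean lies between the lowest and the highest member mean it was below 0 for 59.6%, with a median of -0.02. The members' changes ran from -0.40 for Lss to 0.07 for Insig2, where -0.40 is a difference of -24.4% between the geometric means of the groups. In a limma fit over the whole array of 41345 probe sets, 0 of 25 members passed an adjusted p of 0.05 (Benjamini-Hochberg), where 0% of all probe sets did. Each of the 25 had an adjusted p of 0.998 with limma. At an unadjusted p under 0.05 the count was also 0 of 25, against 4% of all probe sets. The criterion of the study's methods, a fold of at least 1.5 with an unadjusted p under 0.05, was met by 0 of 25 members and by 1.01% of all probe sets, 0.445% in the lower direction. In 0 of 25 members did all ATZ arrays lie below all control arrays, which held for 3.08% of all genes. For 3 arrays against 3 the smallest two-sided p of an exact permutation test is 0.1, and among the members the lowest exact p was 0.2, for Lss, Pmvk and Srebf1.

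**Figure D1:**
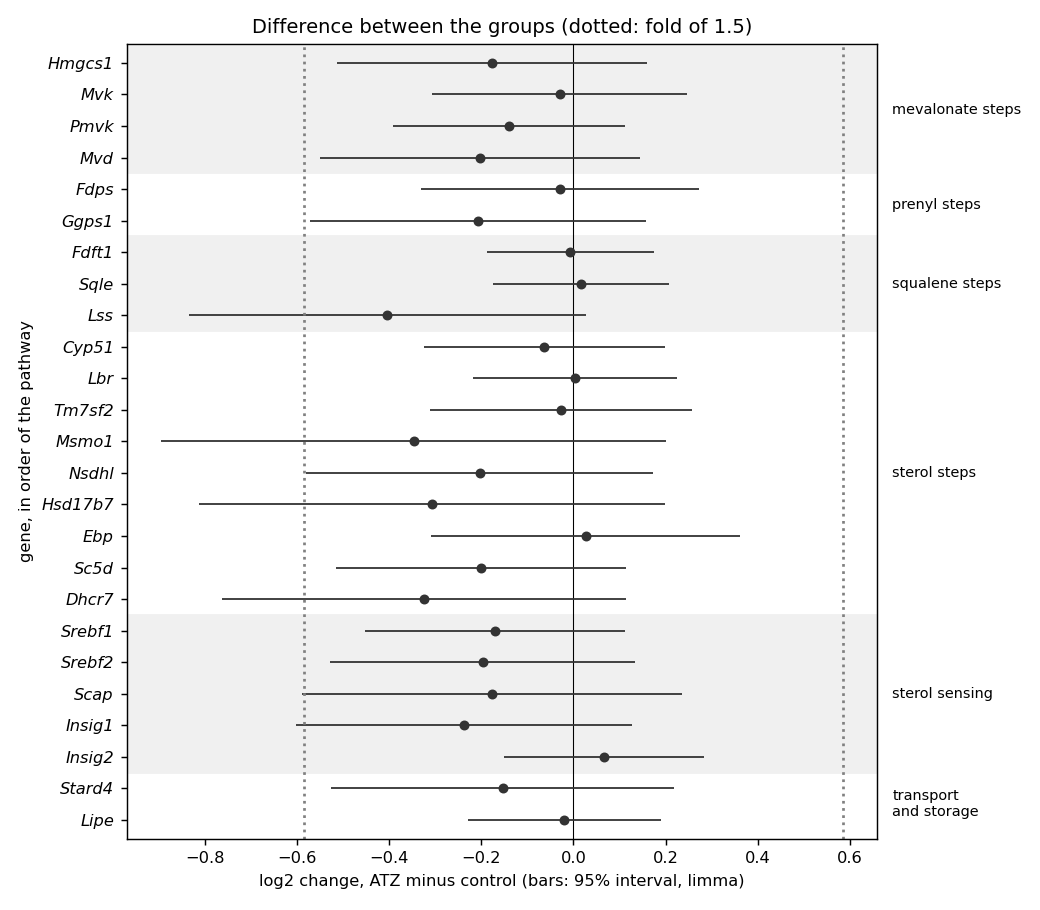
Log2 change (x axis, ATZ minus control) of the 25 members in the order of the pathway (y axis), with 95% intervals from limma and dotted lines at a fold of 1.5 either way. All 25 intervals include 0, and the points lie between -0.40 and 0.07.

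The early enzymes that lead to isoprenoid units had small differences. All 4 measured enzymes of the mevalonate steps had changes below 0, with a median of -0.16, and both measured prenyl enzymes as well, with a median of -0.12, and none of them passed a test. Hmgcs1, which joins acetyl units to HMG-CoA, measured 10.11, 10.00 and 9.89 in the ATZ group against 10.20, 10.40 and 9.93 in the control group, a log2 change of -0.18 (standard error 0.14). Its ATZ arrays lay inside the span of the control arrays except for ATZ replicate 3. The kinases Mvk and Pmvk, which add phosphates to mevalonate, had -0.03 (standard error 0.12) and -0.14 (standard error 0.10). Mvd, which then removes a carboxyl group to give isopentenyl diphosphate, measured 7.56, 7.51 and 7.86 against 8.04, 7.85 and 7.65, a change of -0.20 (standard error 0.14). ATZ replicate 3 was the high ATZ array here, above control replicates 2 and 3. Fdps, which makes farnesyl diphosphate, the last intermediate shared by sterols and other isoprenoids, had -0.03 (standard error 0.13). Ggps1 extends farnesyl to geranylgeranyl diphosphate, which anchors small GTPases in membranes, and lies on a side branch. It measured 8.95, 8.91 and 8.52 against 8.92, 9.19 and 8.89, a change of -0.21 (standard error 0.15). Only ATZ replicate 3 was below all its controls, and the change was -0.07 without that array.

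The enzymes that make and close squalene differed in how much their values varied, with 2 of 3 changes below 0 and a median of -0.01. Fdft1, squalene synthase, measured 13.29, 13.27 and 13.26 in the ATZ group against 13.27, 13.29 and 13.28 in the control group, a span of 0.03 over all 6. Its 95% interval ran from -0.19 to 0.17. Sqle, the epoxidase that puts oxygen on squalene, measured 10.63, 10.60 and 10.63 against 10.66, 10.60 and 10.55, with an interval of -0.17 to 0.21. Neither gene had an array that stood apart. Lss, which closes the epoxide to lanosterol, had the lowest change of all members. It measured 8.51, 8.37 and 8.28 in the ATZ group and 9.06, 8.90 and 8.41 in the control group, means of 8.39 ± 0.12 (SD, n = 3) and 8.79 ± 0.34 (SD, n = 3). Control replicate 3 lay within the ATZ arrays while the other controls lay above all of them. The change of -0.40 had a standard error of 0.18 and an interval of -0.83 to 0.03, and the exact permutation test gave p = 0.2.

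Among the enzymes that turn lanosterol into cholesterol, 7 of 9 had changes below 0, with a median of -0.20 and no call. The lowest changes were those of Msmo1, Dhcr7 and Hsd17b7, and the highest was that of Ebp. Cyp51, the cytochrome P450 that removes the first methyl group of lanosterol, had -0.06 (standard error 0.11). Lbr and Tm7sf2 are related proteins that both reduce the double bond left by Cyp51, and Lbr is also the lamin B receptor of the inner nuclear membrane. Lbr measured 9.61, 9.41 and 9.56 against 9.52, 9.58 and 9.47, and Tm7sf2 measured 7.78, 7.78 and 7.58 against 7.85, 7.82 and 7.55. Both pairs of groups overlapped, with changes of 0.003 (interval -0.22 to 0.22) for Lbr and -0.03 (interval -0.31 to 0.26) for Tm7sf2.
Msmo1, the oxidase that attacks the methyl groups at carbon 4, measured 7.85, 7.57 and 7.50 in the ATZ group against 8.16, 8.31 and 7.49 in the control group. The change was -0.35 (standard error 0.23), with control replicate 3 below every ATZ array. Nsdhl, the dehydrogenase that works on the same carbon, measured 9.98, 9.84 and 9.77 against 10.23, 10.23 and 9.74, a change of -0.20 (standard error 0.16). Hsd17b7, which completes that demethylation and is also known from steroid synthesis in the ovary, measured 8.44, 8.25 and 8.20 against 8.89, 8.79 and 8.13, a change of -0.31 (standard error 0.21). All 3 genes had the same layout, with control replicates 1 and 2 above the ATZ arrays and control replicate 3 below them.
Ebp, which moves a double bond within the ring, had a change of 0.03 (standard error 0.14). Sc5d, a desaturase, measured 9.45, 9.43 and 9.34 against 9.68, 9.79 and 9.35, a change of -0.20 (standard error 0.13). Dhcr7, the reductase that can take the last step to cholesterol, measured 8.55, 8.42 and 8.34 against 8.76, 9.11 and 8.41, a change of -0.32 (standard error 0.18). For Sc5d and Dhcr7, control replicate 3 lay within the ATZ arrays and the other controls above them.

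**Figure D2:**
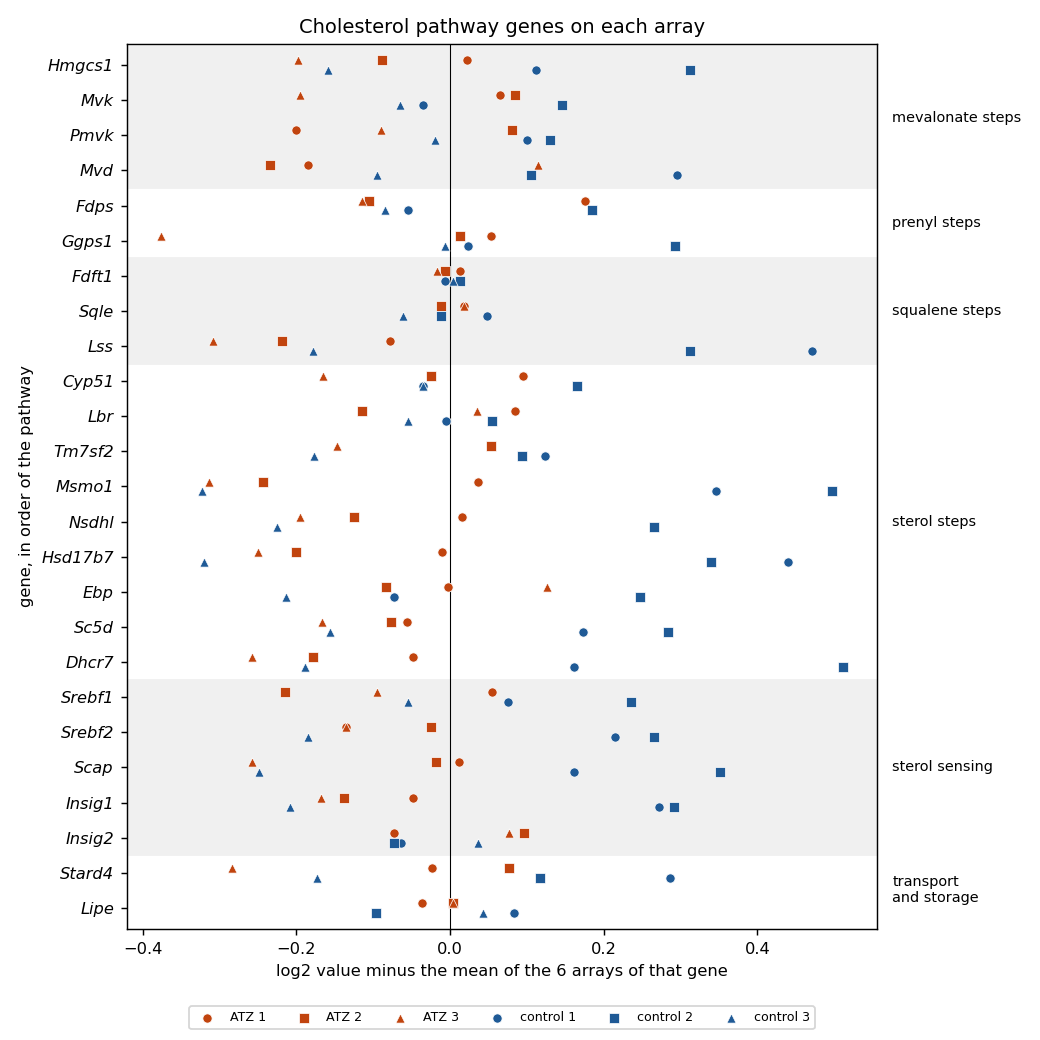
Each of the 25 members (y axis, in the order of the pathway) on each array, as its log2 value minus the mean of the 6 arrays of that gene (x axis). Red points are ATZ and blue points control arrays, and the blue triangles of control replicate 3 lie with the red points for most genes, while control replicates 1 and 2 lie to their right.

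The genes of sterol sensing had 4 of 5 changes below 0, with a median of -0.18, again with no call. Srebf2, which encodes the factor that drives the sterol enzymes, measured 9.11, 9.22 and 9.11 in the ATZ group against 9.46, 9.51 and 9.06 in the control group, a change of -0.20 (standard error 0.14). Srebf1, whose products favour fatty acid genes, measured 7.60, 7.33 and 7.45 against 7.62, 7.78 and 7.49, a change of -0.17 (standard error 0.12). In Srebf2 control replicate 3 was the lowest of all arrays, and in Srebf1 it lay below ATZ replicate 1. Scap had -0.18 (standard error 0.17) at the probe set used, and a second probe set with its symbol had 0.07 (standard error 0.11), so its direction depended on the probe set. Insig1, itself a target of SREBP, measured 9.61, 9.52 and 9.49 against 9.93, 9.95 and 9.45, a change of -0.24 (standard error 0.15). Insig2, which in liver is set largely apart from SREBP, measured 9.68, 9.85 and 9.83 against 9.69, 9.68 and 9.79, a change of 0.07 (interval -0.15 to 0.28). Control replicate 3 was the lowest of all arrays for Insig1 and the highest control for Insig2. Of transport and storage, 2 genes were measured, both below 0 and neither past a test. Stard4, a soluble sterol carrier, had -0.15 (standard error 0.15). Lipe, the hormone-sensitive lipase that frees cholesterol from its esters and that male mice need for sperm formation, had -0.02 (interval -0.23 to 0.19).

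The layout seen for single genes held for most of the list. As the median over the 25 members of the log2 value minus the mean of the 6 arrays, the ATZ arrays stood at 0.01, -0.08 and -0.165 and the control arrays at 0.11, 0.235 and -0.16. Control replicate 3 thus stood beside ATZ replicate 3, and the order of the 6 arrays from low to high was the reverse of their order on the first principal component. The upper quartiles over all probe sets rose in the same order as the members, with ATZ replicates 1 and 2 tied. The part of this array-wide difference in the members' values was not tested. Control replicate 3 was the lowest control for 21 of 25 members, against 38.4% of all genes and 45.4% of genes in the range of the members' means. ATZ replicate 3 was the lowest ATZ array for 16 of 25, against 38.6% of all genes and 47.3% of those in that range, and for 9 of 25 once the arrays were quantile normalized again. Control replicate 1 lay above all ATZ arrays for 17 of 25 members and control replicate 2 for 19, while control replicate 3 did so for 1, within their range for 16 and below it for 8. Over all genes these arrays lay above all ATZ arrays for 24.2%, 31.1% and 16.9%, and among genes in that range for 28.2%, 40.6% and 16.9%. The median SD of a member was 0.195 among the control arrays and 0.12 among the ATZ arrays, where all genes had 0.12 in both groups. The members that varied least among the controls, Fdft1 with an SD of 0.01, Sqle and Lbr with 0.055 each and Insig2 with 0.06, also had changes between -0.01 and 0.07. Pmvk, the next by this SD (0.08), had a change of -0.14.

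How much of the difference rests on single arrays was measured by leaving each out in turn. Control replicate 3 was the lowest control for 21 of 25 members, so leaving it out had to lower their changes. The counts without it are therefore no separate result. Without control replicate 3 the median change of the members was -0.26, and 24 of 25 were below 0. In 14 of 25 members the groups then no longer overlapped, with ATZ lower, against 12.6% of all genes and 16.5% of genes in the range of the members' means. At an unadjusted p under 0.05 there were 9 of 25 members, against 5.74% of all probe sets. Lss at -0.59 and Msmo1 at -0.595 then met the criterion of the methods, against 0.810% of probe sets in the lower direction, and the lowest adjusted p of a member, by limma, was 0.834. Without control replicate 2 the median was -0.095 and 17 of 25 were below 0, and without ATZ replicate 3 it was -0.09 with 18 of 25. Without the other arrays it lay between -0.18 and -0.12.

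**Figure D3:**
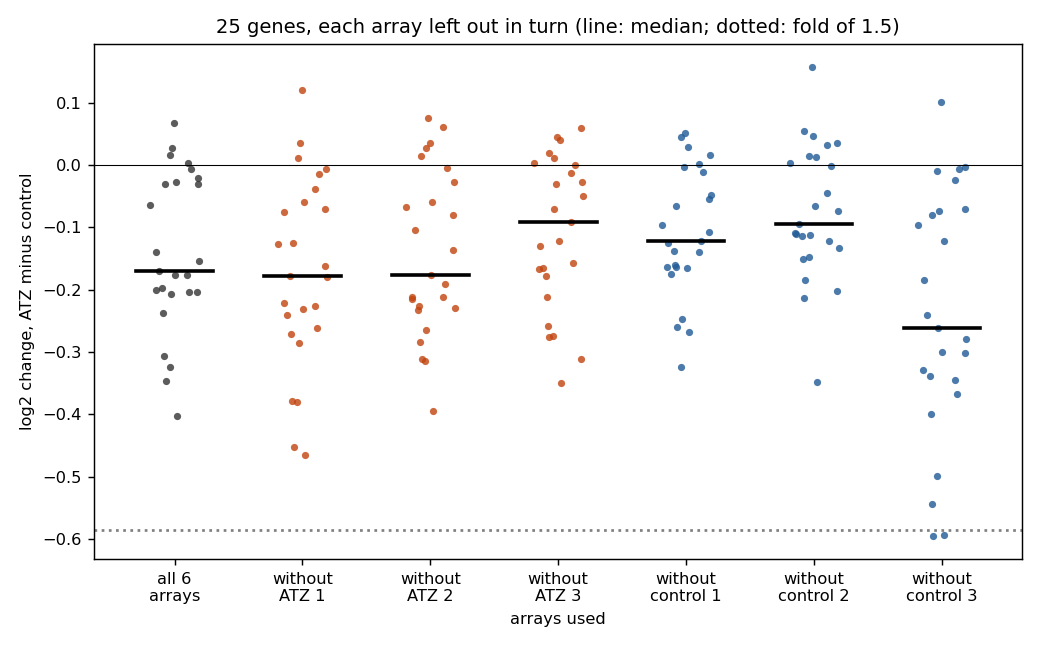
Log2 change of the 25 members (y axis, ATZ minus control; 1 point per gene, black line at the median, dotted line at a fold of 1.5) with all arrays and with each array left out (x axis). The median runs from -0.26 without control replicate 3 to -0.09 without ATZ replicate 3.

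Further genes tied to the pathway were read from lists chosen with earlier results of these arrays known. The fatty acid arm of SREBP-1 was laid out much like the members. Of its 14 measured genes 13 had a change below 0 (10 of 14 without control replicate 2), with a median of -0.105. Its arrays stood at 0.01, -0.11 and -0.09 for ATZ and 0.10, 0.17 and -0.10 for control. Acly, which supplies cytosolic acetyl-CoA to both pathways, measured 10.06, 9.78 and 9.89 against 10.24, 10.40 and 9.92, a change of -0.28 (standard error 0.15). Fasn, fatty acid synthase, had -0.18 (standard error 0.13). In both genes control replicate 3 lay within the ATZ arrays.
Genes that take sterol out of the cell or sense its surplus were spread on both sides. Of 17 measured genes of efflux, oxysterols and LXR, 8 were below 0 and 9 above, with a median of 0.03. Ch25h, which makes an oxysterol, had 0.19 (standard error 0.12), and the exporter Abcg1 had 0.16 (standard error 0.11). The values of Ch25h were dim, from 5.42 to 5.85, and genes with a mean under 6 had a median change of 0.06. Of 17 measured genes of other isoprenoid branches, 9 were below 0 and 8 above, with a median of -0.003, but 5 were below 0 without ATZ replicate 3 and 14 without control replicate 3. Rabggtb, a subunit of the enzyme that puts geranylgeranyl on Rab proteins, measured 5.07, 5.30 and 5.08 against 5.46, 6.03 and 5.87. All of these values were dim, below the median probe set of every array. Its ATZ arrays all lay below the controls, as in 3.08% of all genes, with a change of -0.64 (standard error 0.16). Rabggtb met the criterion of the methods with an adjusted p of 0.998 by limma, but not without control replicate 2 (-0.515) or with array weights (-0.56). Coq2, of ubiquinone synthesis, had -0.19 (standard error 0.13). Of 17 measured genes of SREBP processing and turnover, 13 were below 0, with a median of -0.03, but 8 without control replicate 2. Nfyb, a subunit of NF-Y, had -0.22 (standard error 0.14), and Erlin1, which takes part in the degradation of sterol-regulated proteins, had 0.14 (standard error 0.10). In these 4 lists no call was made after adjustment in limma (0 genes), and 1 gene, Rabggtb, had an unadjusted p under 0.05.

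Markers of several cell types of the testis varied over the arrays in a similar way. Star, which feeds cholesterol into mitochondria of Leydig cells for steroid synthesis and which the study itself singled out on these samples, measured 10.48, 10.49 and 10.30 in the ATZ group against 11.30, 11.31 and 10.57 in the control group. The change was -0.64 (standard error 0.21, adjusted p = 0.998 by limma), with no overlap but with control replicate 3 nearest the ATZ arrays. With an unadjusted p of 0.022 in limma it met the criterion of the methods. It did not meet it without control replicate 1 (-0.52), control replicate 2 (-0.51) or ATZ replicate 3 (-0.575), or when each probe set was tested alone (unadjusted p = 0.065). The study also reports qPCR of Star and a decrease of the histone mark H3K4me3 within the gene, neither of which is examined here. Of 9 measured Leydig markers 8 had a change below 0 (6 of 9 without control replicate 2), with a median of -0.11, which was also the median without Star. Those 8 other markers stood at 0.005, -0.03 and -0.105 with ATZ and at 0.045, 0.25 and -0.14 in the controls. Hsd11b1, of mature Leydig cells, measured 5.98, 5.82 and 6.03 against 5.75, 5.73 and 5.81, below the median probe set of every array. Its change was 0.18 (standard error 0.09), with its ATZ arrays above all controls, as in 849 of 22180 genes. Genes with a mean under 6 had a median change of 0.06. Of 13 Sertoli markers 12 were below 0 (8 of 13 without control replicate 2), with a median of -0.10. Their array medians ran from -0.13 to 0.04 with ATZ and from -0.08 to 0.22 in the controls. Gata4, a transcription factor of Sertoli and Leydig cells, had -0.20 (standard error 0.10), and Fshr, the FSH receptor, -0.21 (standard error 0.16). For Gata4 all ATZ arrays lay below all controls, with 9.17 as the highest ATZ value and 9.20 on control replicate 3. That held for 1 of 13 Sertoli markers and for 3.08% of all genes. Leukocyte markers, with 6 of 9 below 0 (3 of 9 without ATZ replicate 3) and a median of -0.04, stood at -0.22 on ATZ replicate 3 and -0.215 on control replicate 3, and the other arrays lay between 0.01 and 0.28. Ptprc, the general leukocyte antigen, had -0.15 (standard error 0.09), and C1qb, a complement gene of macrophages, -0.17 (standard error 0.17). Germ cell markers varied least, from -0.04 to 0.035 over the 6 arrays, with 10 of 14 below 0 and a median of -0.03. Stra8 had -0.24 (standard error 0.18) and Tssk6 -0.16 (standard error 0.11). Fat cell markers, 5 measured, had a median of 0.01, with Fabp4 at -0.63 (standard error 0.54) and Lep at 0.13 (standard error 0.17). The part of these cell types in the members' values was not tested.

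**Figure D4:**
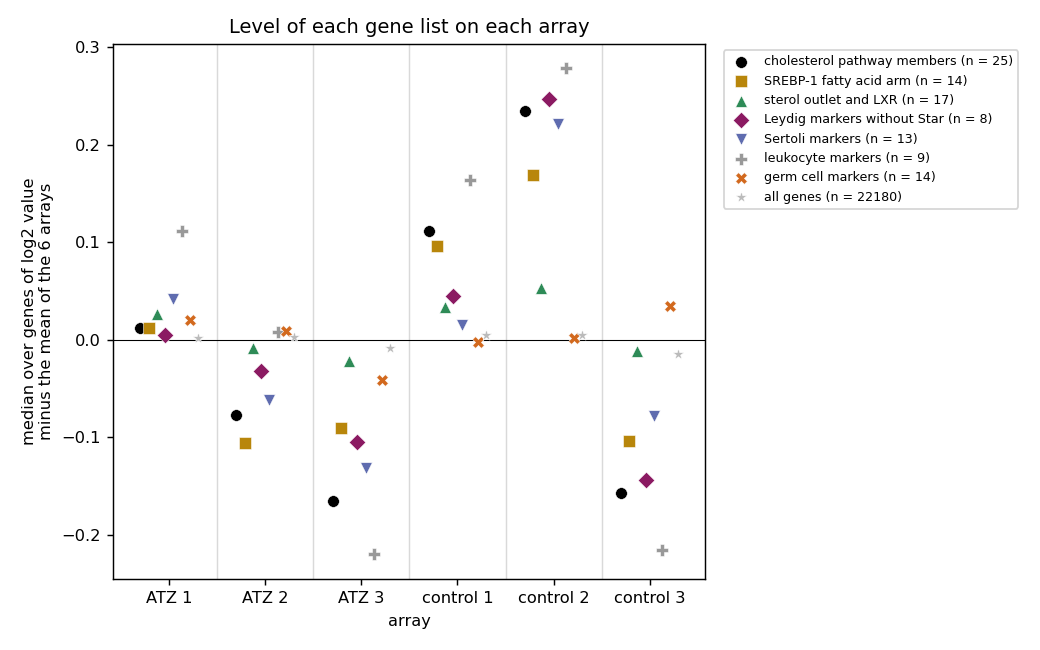
For each array (x axis), the median over the genes of a list of the log2 value minus the mean of the 6 arrays (y axis). The members reach 0.235 on control replicate 2 and about -0.16 on ATZ replicate 3 and control replicate 3, the fatty acid, Leydig, Sertoli and leukocyte lists are also high on control replicate 2 and low on those arrays, and germ cell markers and all genes stay near 0.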

How the data were processed

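Total RNA of whole testes was labelled and hybridised to Affymetrix mouse gene arrays. The deposited values are log2 values, 1 per probe set and array, which the authors made with RMA in the Affymetrix Expression Console, as the submitters' processing notes and the methods name them. Their versions are not given. RMA corrects background, brings all arrays to a common distribution and summarises probes, so arrays whose RNA truly differed in total would be made alike. The upper quartiles of the deposited values still ran from 8.53 to 8.69. The table holds 41345 probe sets, of which the annotation gives 1 symbol to 23521, several to 1820 and none to 16004.

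Groups were taken from the sample titles. The ATZ group was set against the control group by lmFit and eBayes of limma (version 3.58.1, R version 4.3.3). Tests were two-sided, every probe set entered, and the Benjamini-Hochberg adjustment ran over the whole array. The methods name AMEN with a fold of 1.5 and p under 0.05, but not its test. Single values were also tested by an exact permutation test. Standard errors and 95% intervals are those of limma. Members, gene lists, motifs and alternatives were chosen with earlier results of these data known. The genes named are all members, with every array's value for the 10 largest changes and for related pairs, Star, and from each list the 2 genes of smallest p. Hmgcs1, Fdft1 and Sqle are given in full although they fall outside that rule, chosen after their values were seen, as is the spread of the steadiest members. The script was tested on simulated data. Figures were drawn with matplotlib 3.10.9.

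Replicate numbers were not taken as pairs in the main fit, because the methods name no block. The deviations of same-numbered arrays from their group means correlated at 0.02, 0.11 and 0.26, and those of differently numbered arrays at -0.19 to 0.09. These values do not settle whether the numbers mark pairs. Alternatives were the replicate block, other variance models, array weights, renormalization, brightness and probe set choices, linear folds and each array left out. The background of genes in the range of the members' means and the Leydig list without Star were chosen after seeing the data.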

Additional observations from a re-analysis of the deposited data

How the results depend on the processing

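In all 16 alternatives 0 members had an adjusted p under 0.05 with limma or when each probe set was tested alone, and the lowest was 0.807. The direction was kept in all of them by 16 of 25 members and by Star, and Fdft1 was at exactly 0 without ATZ replicate 3. A replicate block cannot move a log2 change here, because every replicate number occurs in both groups, so the members' median of -0.17 was fixed by the layout. The variance trend and the test of each probe set alone cannot move it either. Every member passed the brightness filter, and only Scap had a second probe set of its own. That filter and the probe set choice by SD left all members' changes as they were, and averaging probe sets could move only Scap. Apart from Scap, directions kept in these fits carry no information. The block does move p-values, and the lowest adjusted p of a member, 0.807 by limma, came from that fit. The 8 members that changed sign were all near 0. Array weights gave 0.010 for Mvk and 0.029 for Fdps. Quantile normalization gave 0.0089 for Mvk and 0.0022 for Tm7sf2. Centred arrays gave -0.013 for Sqle, -0.027 for Lbr and -0.0033 for Ebp. With single arrays left out, the ranges were -0.08 to 0.06 for Mvk, -0.125 to 0.055 for Fdps, -0.127 to 0.0033 for Cyp51, -0.122 to 0.04 for Tm7sf2, -0.01 to 0.045 for Sqle, -0.038 to 0.062 for Lbr, -0.073 to 0.157 for Ebp and -0.073 to 0.017 for Lipe.

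Members without overlap and lower in ATZ ranged from 0 to 14 over the arrays left out, highest without control replicate 3, where the share over all genes was 12.6%. Without each of the other arrays they were at most 3 of 25, and the share over all genes was 5.84% to 7.66%. Members meeting the criterion ranged from 0 to 2. Members with ATZ replicate 3 lowest were 9 with quantile normalization, against 16. Probe sets meeting the criterion were 416, but 193 when each was tested alone, 50 among those with a mean above the median, and 483 to 699 without single arrays. Calls over all probe sets were 2 with a variance trend and robust settings and 2 among those with a mean above the median, against 0. The causes were not tested, except that the brightness filter tests fewer probe sets.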
